A study of Mus musculus with 8 samples.

Results

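Tight junctions of the epidermis were examined through 9 genes, namely 5 claudins (Cldn1, Cldn4, Cldn7, Cldn8 and Cldn12) and 4 of their partners (Ocln, Tjp1, F11r and Cgn). They were taken by symbol from the 27179 genes of a count table, and all 9 were among the 17702 genes with enough reads to test. The table comes from bulk RNA sequencing of epidermal cells of C57BL/6J mice, in 4 libraries from aged and 4 from adult animals, for which the methods name 4 mice per condition. By the labels, aged mice were 73 weeks and adult mice 17 to 25 weeks old, and every sample carries a control IgG antibody, given intraperitoneally as 210 µg in 100 µl at 3 doses a week over 12 weeks. In the methods the antibody belongs to ageing animals alone, in a comparison of its own, and the aged group is older. There 73 weeks is the age at which the 12 weeks of antibody began, so it may not be the age at harvest. For the comparison of adult with aged mice, the methods describe total RNA, paired-end reads and no injection. Whether the mice of these libraries were injected stays unresolved. If only the aged mice were injected, treatment and age cannot be told apart. The epidermis was lifted from the skin with dispase, and no sort of epidermal cell types is described.

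Tight junctions are belts of strands that close the space between neighboring cells. In the stratified epidermis they form in the granular layer, below the cornified layer, and limit the passage of water and ions between keratinocytes. Claudins are four-pass membrane proteins that build the strands and set their selectivity, whereas occludin and junctional adhesion molecules accompany them, and zonula occludens proteins and cingulin form the plaque that ties them to actin. Transcripts of junction genes are also found outside the granular layer, and in bulk samples fewer cells of a type and less RNA per cell cannot be told apart.

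None of the 9 genes passed the threshold for a difference between aged and adult epidermal cells, which was an adjusted p under 0.1 together with a log2 fold change beyond 0.32 in either direction in edgeR's quasi-likelihood test. Over all genes tested 0.113% passed, which was 20 genes, 15 lower and 5 higher in aged cells, and with the replicate number as a block the count over all genes was 3 (0.0169%). DESeq2 and limma-voom, both without a further term, also called 0 of the 9, beside 1.07% of all genes in DESeq2 and 0.096% in limma-voom. At an unadjusted p under 0.05, 1 of the 9 passed, Cldn4, beside 5.99% of all genes. With the replicate block 2 of the 9 passed that level, Cldn4 and Cgn, beside 12.6% of all genes. The values of aged and adult libraries overlapped for all 9 genes, whereas the groups were apart for 3.54% of all genes. Cldn4 and Cgn had the 2 most negative estimates, at -0.65 and -0.53 on the log2 scale, which were -0.34 and -0.01 without adult replicates 3 and 4. In that fit 0 of the 9 were called, beside 0.0549% of all genes. With the replicate block the estimates of Cldn4 and Cgn were -0.61 and -0.46. The median log2 fold change was -0.15 over the 9 genes and 0.01 over all genes, and 6 of the 9 estimates were below 0, against 47.9% of all genes. Without adult replicates 3 and 4 the median over the 9 genes was -0.030.

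The libraries held 75027694 to 90140102 counts, of which 17.3% to 31.1% were mitochondrial. The basal keratin Krt14 had 2575 to 3451 CPM (read counts relative to the library's scaled total) in aged and 1745 to 3008 CPM in adult libraries, and the suprabasal keratin Krt10 had 2515 to 6125 CPM in aged and 2309 to 6750 CPM in adult libraries, so the labelled tissue had its defining markers. Adult replicates 3 and 4 stood apart from the rest of their group, with a correlation of log2 levels across genes of 0.994 with each other and 0.971 to 0.984 with adult replicates 1 and 2. The summed level of 10 basal keratinocyte markers was 13339 to 19147 CPM in aged libraries and 17531, 17026, 8972 and 9145 CPM in adult replicates 1 to 4. The sum of 12 suprabasal and granular markers was 7670 to 14901 CPM in aged libraries and 6937, 9695, 16439 and 14555 CPM in adult replicates 1 to 4. No batch could be read from the labels.

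The start regions of 3 genes are shown because Cldn1 was the most abundant claudin and Cldn4 and Cgn had the largest estimated differences. Each window holds the 250 bases before the RefSeq start site on assembly GRCm38.p6, all 3 on the minus strand, at chr16:26371840-26372089 for Cldn1, chr5:134946935-134947184 for Cldn4 and chr3:94786483-94786732 for Cgn. The Cgn window precedes an annotated start that lies inside the gene's span, downstream of its outermost 5′ end. Capitals mark matches, on either strand, to the AP-1 motif TGANTCA, the E-box CACCTG and the Grainyhead motif AACCNGTT.
Cldn1 promoter: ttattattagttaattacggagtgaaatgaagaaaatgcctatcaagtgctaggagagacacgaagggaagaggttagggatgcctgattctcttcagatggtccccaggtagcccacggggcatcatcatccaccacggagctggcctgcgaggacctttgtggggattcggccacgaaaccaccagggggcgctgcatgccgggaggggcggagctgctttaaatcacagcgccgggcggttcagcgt
Cldn4 promoter: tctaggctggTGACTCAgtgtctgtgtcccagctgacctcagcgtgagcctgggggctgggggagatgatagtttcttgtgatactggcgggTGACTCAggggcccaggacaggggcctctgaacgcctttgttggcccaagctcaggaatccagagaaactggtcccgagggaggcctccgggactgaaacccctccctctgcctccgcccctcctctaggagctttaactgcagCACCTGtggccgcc
Cgn promoter: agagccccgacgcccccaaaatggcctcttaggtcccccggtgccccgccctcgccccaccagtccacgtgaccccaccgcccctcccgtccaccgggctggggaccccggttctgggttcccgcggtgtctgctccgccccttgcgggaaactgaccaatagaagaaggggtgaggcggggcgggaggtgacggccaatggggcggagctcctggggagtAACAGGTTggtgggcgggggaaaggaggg
The Cldn4 window held 2 AP-1 matches, 240 and 158 bases before the start, and an E-box match 14 bases before it. Among 32851 promoter windows of that length, 6.75% held an AP-1 match and 0.338% held 2 or more. The Cgn window held a Grainyhead match 29 bases before the start, which 1.79% of all windows hold, and the Cldn1 window held none of these 3 motifs. The promoter table held entries for 8 of the 9 genes, all but Cldn8. A further AP-1 match lay in the F11r window, 109 bases before its start, and E-box matches, which 17.2% of all windows hold, lay in windows of F11r, Cldn7 and Ocln. The GC box GGGCGG, unmarked in the printed windows and held by 32.7% of all windows, was present in 10 of the 12 windows of the 8 genes, and the NF-kB motif, in 3.9% of all windows, in 0 of the 12. Windows of the same gene can overlap, and 2 of those counted for Cldn12 share the same GC box. A match of letters is a description of the sequence and does not show that a factor binds there.

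Among the claudins, Cldn1 (chromosome 16: 26356645 to 26371839, minus strand, GRCm38.p6 like all positions given here) encodes the claudin without which newborn mice lose water through the skin and die. Its levels were 353, 406, 293 and 402 CPM in aged replicates 1 to 4 and 387, 361, 440 and 428 CPM in adult replicates 1 to 4. The aged group held both the lowest library and 2 libraries above 400 CPM, within the adult range. Cldn1 averaged 364 ± 52.7 CPM in aged cells and 404 ± 36.6 CPM in adult cells (SD, n = 4 each), a log2 fold change of -0.15 ± 0.13 (SE, edgeR adjusted p = 0.876). The 95% interval of the aged over adult fold was 0.733 to 1.11.

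Cldn4 (chromosome 5: 134945123 to 134946934, minus strand) encodes a claudin found in the upper living layers of the epidermis, where the junctions close. It had 35.0, 34.5, 31.1 and 43.5 CPM in aged replicates 1 to 4 and 37.1, 54.1, 75.9 and 58.4 CPM in adult replicates 1 to 4. Adult replicate 1 lay among the aged libraries, adult replicates 2 to 4 lay above all of them, and adult replicate 3 was the highest. The mean was 36.01 ± 5.29 CPM in aged cells and 56.4 ± 15.9 CPM in adult cells (SD, n = 4 each), that is 36.1% lower in aged cells, with a log2 fold change of -0.65 ± 0.20 (SE), an interval of -1.10 to -0.20, an unadjusted p of 0.00959 and an edgeR adjusted p of 0.673. Without adult replicates 3 and 4 the log2 fold change was -0.34 ± 0.18 (SE; edgeR unadjusted p = 0.0895). DESeq2 with a term for the replicate pair (1 and 2 against 3 and 4) was the 1 setting in which Cldn4 was called, at -0.62 and an adjusted p of 0.029, and in that setting 4.8% of all genes were called. Over all alternatives its adjusted p ran from 0.029 to 0.9999.

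Cldn8 (chromosome 16: 88560826 to 88563183, minus strand), a claudin best known from barrier-forming segments of the kidney tubule, was present at 15.6, 12.2, 11.9 and 11.7 CPM in aged replicates 1 to 4 and at 19.0, 14.6, 12.3 and 13.2 CPM in adult replicates 1 to 4. Replicate 1 was the highest of its group in both ages. The log2 fold change was -0.20 ± 0.16 (SE, edgeR adjusted p = 0.857) and, unlike that of Cldn4, was further from 0 without adult replicates 3 and 4, at -0.38 ± 0.17 (edgeR unadjusted p = 0.0479, a level that 3.21% of all genes passed in that fit). Without adult replicate 1, the highest library, it was -0.056 (edgeR unadjusted p = 0.680).

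Cldn12 (chromosome 5: 5505015 to 5514976, minus strand), a claudin that lacks the tail motif by which most family members bind zonula occludens proteins, varied least. It had 25.8, 29.3, 25.8 and 26.2 CPM in aged replicates 1 to 4 and 29.1, 27.1, 23.9 and 26.1 CPM in adult replicates 1 to 4, with a coefficient of variation of 6.22% in aged and 8.18% in adult cells. The log2 fold change was 0.01 ± 0.09 (SE, edgeR adjusted p = 0.989) with a 95% interval of 0.876 to 1.16 for the fold. Its sign turned to -0.069 without adult replicates 3 and 4.

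Cldn7 (chromosome 11: 69964779 to 69967886, plus strand), a claudin of simple and gland epithelia, was close to the floor. It received 36, 32, 20 and 22 counts in aged replicates 1 to 4 and 22, 27, 15 and 23 counts in adult replicates 1 to 4, which is 0.322 ± 0.0713 CPM in aged cells and 0.271 ± 0.0534 CPM in adult cells (SD, n = 4 each). At these counts the 95% interval of the fold ran from 0.746 to 1.89, around a log2 fold change of 0.25 ± 0.30 (SE, edgeR adjusted p = 0.901).

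**Figure D1:**
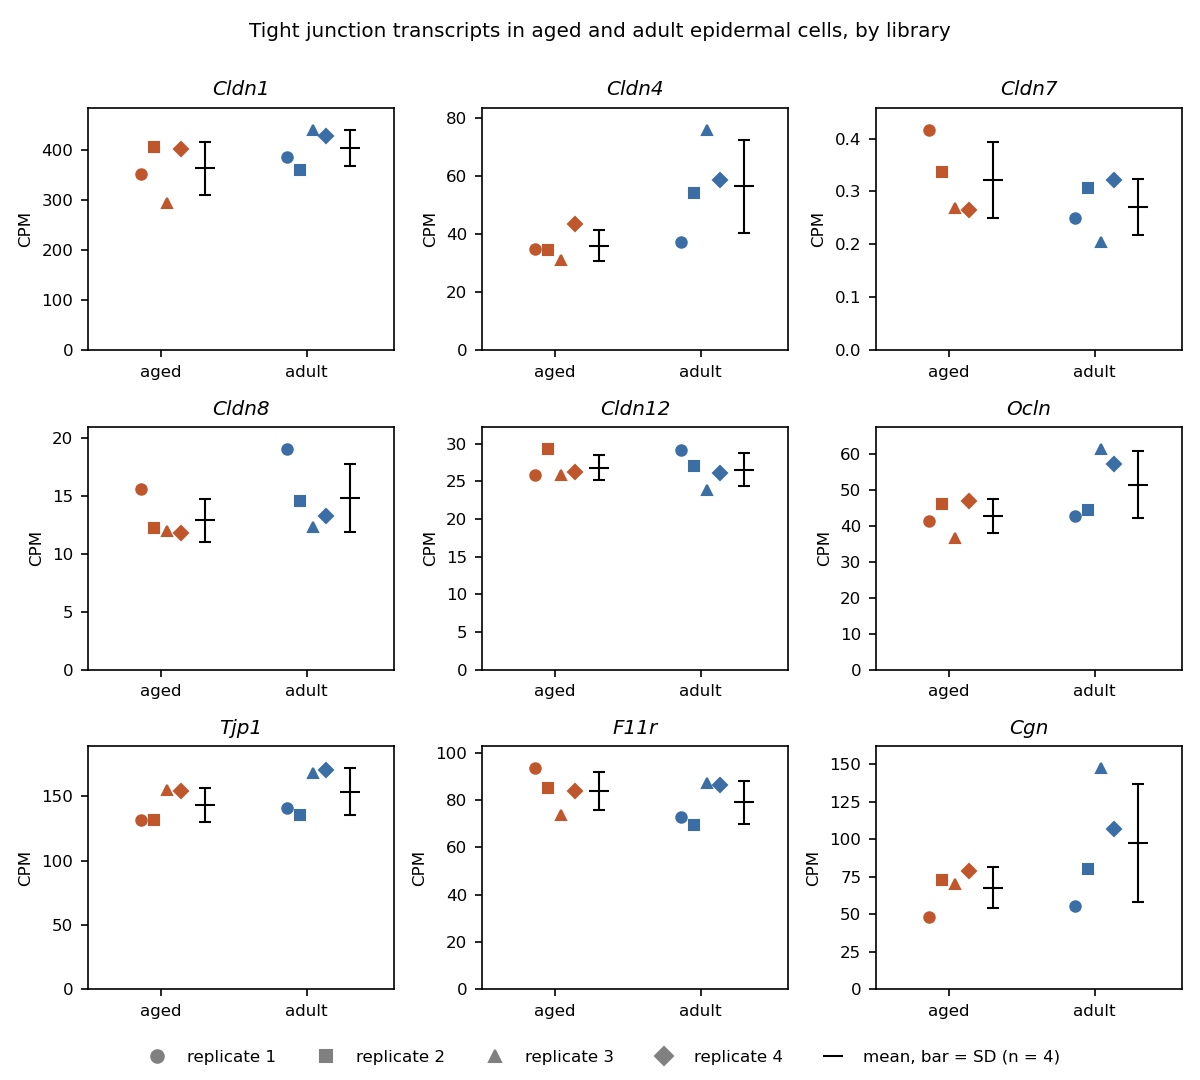
Level of each of the 9 tight junction genes in CPM (linear axis from 0) in the 4 aged (left, orange) and 4 adult (right, blue) libraries, with a marker shape for each replicate number and the mean with its SD beside the points. The ranges of aged and adult points overlap in every panel, and adult replicates 3 and 4 are the 2 highest adult points for Cldn1, Cldn4, Ocln, Tjp1, F11r and Cgn.

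Among the partners, Ocln (chromosome 13: 100496504 to 100552718, minus strand) encodes occludin, a four-pass membrane protein of the strands. It had 41.4, 46.3, 36.7 and 46.9 CPM in aged replicates 1 to 4 and 42.9, 44.5, 61.4 and 57.4 CPM in adult replicates 1 to 4. Adult replicates 1 and 2 lay within the aged range and adult replicates 3 and 4 above it. The log2 fold change was -0.27 ± 0.14 (SE, edgeR adjusted p = 0.836), and it was -0.03 ± 0.13 without adult replicates 3 and 4.

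F11r (chromosome 1: 171437561 to 171464593, plus strand) encodes JAM-A, an immunoglobulin-type adhesion molecule that helps to place polarity proteins at the junction. Its levels were 93.4, 85.2, 73.8 and 83.7 CPM in aged replicates 1 to 4 and 72.7, 69.6, 87.4 and 86.5 CPM in adult replicates 1 to 4. The highest library was aged and the lowest adult, with wide overlap. The log2 fold change of 0.09 ± 0.11 (SE, edgeR adjusted p = 0.907) was the only positive estimate among the partners, and was 0.24 ± 0.12 without adult replicates 3 and 4 (edgeR unadjusted p = 0.0816).

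Tjp1 (chromosome 7: 65296165 to 65527850, minus strand) encodes ZO-1, the scaffold that binds claudin tails and nucleates strands. It had 132, 132, 155 and 154 CPM in aged replicates 1 to 4 and 141, 135, 168 and 170 CPM in adult replicates 1 to 4. In both groups replicates 3 and 4 were above replicates 1 and 2. The log2 fold change was -0.10 ± 0.11 (SE, edgeR adjusted p = 0.895) and turned to 0.053 ± 0.13 without adult replicates 3 and 4.

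Cgn (chromosome 3: 94760069 to 94787725, minus strand) encodes cingulin, a plaque protein that binds ZO-1 and myosin. It showed the widest spread of the 9 genes, 3.07-fold between the lowest and the highest library, with 47.9, 73.1, 70.3 and 79.1 CPM in aged replicates 1 to 4 and 55.6, 80.3, 147 and 107 CPM in adult replicates 1 to 4. Replicate 1 was the lowest of its group in both ages, and adult replicates 3 and 4 lay above all aged libraries. The mean was 67.6 ± 13.6 CPM in aged cells and 97.6 ± 39.2 CPM in adult cells (SD, n = 4 each), with a log2 fold change of -0.53 ± 0.28 (SE, edgeR adjusted p = 0.836). Without adult replicates 3 and 4 it was -0.01 ± 0.21, and without adult replicate 3 alone -0.26. With the replicate number as a block it was -0.46 ± 0.16 (SE, edgeR unadjusted p = 0.0265, adjusted p = 0.351). With a replicate-pair term (1 and 2 against 3 and 4) it was -0.47 ± 0.20 (SE, edgeR unadjusted p = 0.0451, adjusted p = 0.393).

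**Figure D2:**
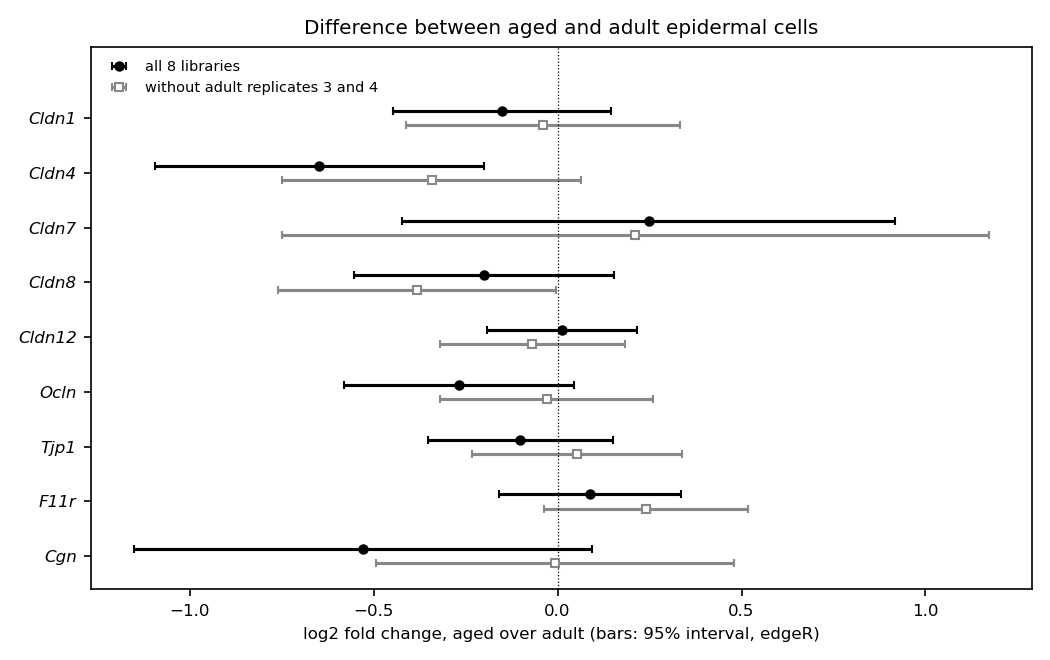
Log2 fold change of aged over adult cells for the 9 genes, with 95% intervals from edgeR, for all 8 libraries (black circles) and without adult replicates 3 and 4 (open gray squares). Cldn4 moves from -0.65 to -0.34 and Cgn from -0.53 to -0.01 when the 2 libraries are left out, and the intervals with all libraries include 0 for each gene except Cldn4.

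Levels of different genes were compared after division by exon length (CPM per kb). The order was Cldn1, F11r, Cldn4, Tjp1, Cgn, Ocln, Cldn12, Cldn8 and Cldn7 by the mean of all libraries, and in aged cells alone the mean of Tjp1 (20.1 CPM per kb) was above that of Cldn4 (19.8). Cldn1 stood first in all 8 libraries, at 112 ± 16.2 CPM per kb in aged and 124 ± 11.3 CPM per kb in adult cells (SD, n = 4 each), and Cldn7 last in all 8, at 0.218 ± 0.0483 CPM per kb in aged and 0.183 ± 0.0362 CPM per kb in adult cells. In between, neighbors were often not separated: F11r was above Cldn4 in 6 of 8 libraries, Cldn4 above Tjp1 in 7, Tjp1 above Cgn in 7, Cgn above Ocln in 6 and Cldn12 above Cldn8 in 6. Ocln was above Cldn12 in all 8 libraries.

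Cldn1 made up 77.5% ± 1.67 of the summed per-kb level of the 5 claudins in aged and 73.8% ± 2.34 in adult cells (SD, n = 4 each). The share of Cldn4 was 13.6%, 12.1%, 14.3% and 15.0% in aged replicates 1 to 4 and 13.2%, 19.3%, 22.1% and 18.2% in adult replicates 1 to 4. Adult replicate 1 lay within the aged range, whereas adult replicates 2 to 4 were above it. These shares were not tested on their own, since they restate the levels of the same libraries.

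The wider claudin family was measured as 31 further claudin and claudin-domain genes, of which 11 had enough reads to test, 12 had 1 to 47 counts over all libraries and 8 had none. None of the 11 was called, 8 had an estimate above 0 and 3 below 0, and 3 had an unadjusted p under 0.05. Per kb, the most abundant were the claudin-domain gene Cldnd1 (log2 fold change -0.10 ± 0.08) and Cldn23. Cldn23 had 9.80 ± 2.18 CPM in aged cells and 15.0 ± 5.03 CPM in adult cells (SD, n = 4 each), a log2 fold change of -0.61 ± 0.26 (SE, edgeR adjusted p = 0.824) and of -0.34 without adult replicates 3 and 4. Cldn3, a barrier-forming claudin, was the only one of the 16 tested whose groups did not overlap, beside 3.54% of all genes. Cldn3 had 0.579, 1.03, 0.737 and 0.748 CPM in aged replicates 1 to 4 and 1.11, 1.78, 1.70 and 1.12 CPM in adult replicates 1 to 4. Its log2 fold change was -0.88 ± 0.27 (SE, edgeR adjusted p = 0.675), and it was -0.90 without adult replicates 3 and 4. Cldn24 had a log2 fold change of 1.71 ± 0.65 (edgeR adjusted p = 0.775) at 0.339 ± 0.150 CPM in aged cells and 0.0995 ± 0.102 CPM in adult cells, which was 1.03 (unadjusted p = 0.143) without adult replicates 3 and 4, and Cldn20, the fourth by level, had 0.37 ± 0.36 (edgeR adjusted p = 0.885). Cldn5, the endothelial claudin, lay at 0.0630 to 0.208 CPM in aged and 0.0680 to 0.196 CPM in adult libraries, and the summed level of 7 endothelial markers was 1.74 to 3.91 CPM in aged and 2.73 to 4.04 CPM in adult libraries.

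**Figure D3:**
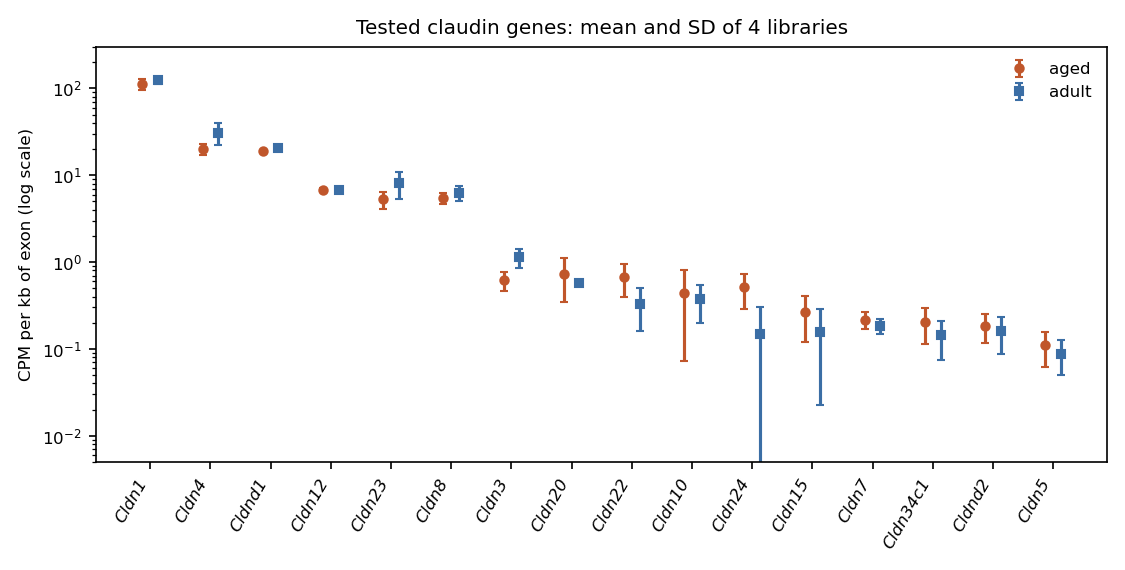
Mean level of the 16 tested claudin and claudin-domain genes in CPM per kb of exon (log axis) in aged (orange circles, left of each pair) and adult (blue squares) cells, with bars for the SD of 4 libraries. Cldn1 lies at 112 in aged and 124 in adult cells, above the other claudins, and the lower bar of adult Cldn24 runs off the axis because its SD exceeds its mean.

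Of 11 other membrane proteins of the junction, 9 were tested and none was called, with 4 estimates above and 5 below 0. The most abundant per kb were Lsr, the angulin of tricellular contacts (-0.24 ± 0.18), the adhesion receptor Cxadr (-0.06 ± 0.12), tricellulin (Marveld2, -0.20 ± 0.15) and the polarity protein Crb3 (-0.38 ± 0.17), each as log2 fold change ± SE. Crb3 and Ildr1 (-0.50 ± 0.18), a second angulin, had an unadjusted p under 0.05 (edgeR adjusted p = 0.824 for Crb3 and 0.740 for Ildr1). Without adult replicates 3 and 4, Lsr turned to 0.10 and Marveld2 to 0.078, Crb3 was -0.11 (edgeR unadjusted p = 0.511) and Ildr1 -0.30 (edgeR unadjusted p = 0.199). Of 23 plaque and polarity genes, all were tested, none was called, 6 estimates were above and 17 below 0, 3 had an unadjusted p under 0.05, and the median log2 fold change was -0.04. Patj, a scaffold of the Crumbs complex, was the only one of the 23 with groups apart, beside 3.54% of all genes. Patj had 54.8 to 70.3 CPM in aged and 70.5 to 87.7 CPM in adult libraries, a log2 fold change of -0.32 ± 0.11 (SE, edgeR adjusted p = 0.739). Arhgef2, an exchange factor for RhoA that cingulin binds, had -0.41 ± 0.17 (edgeR adjusted p = 0.805), and Pard6b, of the Par polarity complex, 0.29 ± 0.12 (edgeR adjusted p = 0.819). When adult replicates 3 and 4 were left out, Patj was -0.21 (edgeR unadjusted p = 0.119), Arhgef2 -0.34 (0.140) and Pard6b 0.14 (0.328).

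The 4 most abundant plaque genes per kb included afadin (Afdn), which links nectins to actin, at 519 ± 53.4 CPM in aged cells and 736 ± 258 CPM in adult cells (SD, n = 4 each), with a log2 fold change of -0.50 ± 0.23 (edgeR unadjusted p = 0.0573) that was -0.0020 without adult replicates 3 and 4. The other 3 were Ybx3 (-0.20 ± 0.15), Amotl1 (-0.02 ± 0.11) and Prkci (-0.00 ± 0.08), as log2 fold change ± SE, and without adult replicates 3 and 4 Ybx3 was -0.077 and Prkci 0.064. Afdn, Cldn3 and Ildr1 were the 3 genes of these tight junction lists called by DESeq2 with the replicate-pair term, whereas DESeq2 without it and limma-voom called 0. DESeq2 with that term also called the adherens junction gene Nectin1 (-0.34, adjusted p = 0.018) and the protease Prss8 (-0.46, adjusted p = 0.061).

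Adherens junction genes, which hold keratinocytes together below the tight junction, gave 2 estimates above and 10 below 0 among 12 tested, with none called and a median of -0.15. The most abundant were Jup (-0.24 ± 0.16), Ctnnb1 (-0.24 ± 0.13), Cdh1 (-0.18 ± 0.11) and Ctnna1 (-0.02 ± 0.10), and Nectin3 (-0.70 ± 0.28, edgeR adjusted p = 0.805) was the only one with an unadjusted p under 0.05. In the fit without adult replicates 3 and 4 Nectin3 was -0.61 (edgeR unadjusted p = 0.101), Jup -0.028 and Ctnnb1 -0.10. Among 13 tested transcription factors of the junction and barrier program, none was called and none had an unadjusted p under 0.05. Klf4 (-0.10 ± 0.11), Grhl1 (-0.29 ± 0.23), Trp63 (0.16 ± 0.13) and Grhl3 (-0.44 ± 0.28) were the most abundant of them. Without adult replicates 3 and 4, Grhl1 turned to 0.15 and Grhl3 to 0.041, while Klf4 was -0.22 and Trp63 0.016. Grhl2, also in the list, was 0.037 in that fit and 0.20 ± 0.08 (SE) with the replicate block. All 7 membrane-bound proteases and their inhibitors had estimates below 0, with none called, and St14 (matriptase, -0.30 ± 0.12) and its partner Prss8 (prostasin, -0.47 ± 0.16) had an unadjusted p under 0.05 (edgeR adjusted p = 0.781 for St14 and 0.730 for Prss8). The others named by level were Tmprss4 (-0.23 ± 0.28), Spint2 (-0.20 ± 0.11), Spint1 (-0.27 ± 0.15) and Tmprss13 (-0.26 ± 0.13). Leaving out adult replicates 3 and 4, 5 of the 7 estimates were below 0, with a median of -0.061, Tmprss4 turned to 0.32, and St14 was -0.14 (edgeR unadjusted p = 0.289) and Prss8 -0.23 (edgeR unadjusted p = 0.149).

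How the 9 genes varied together was measured over the 8 libraries, with exact permutation tests over 40320 pairings for each of the 36 gene pairs. After Benjamini-Hochberg adjustment over the 36, 2 pairs passed 0.05, both with Ocln. Cldn1 and Ocln had Pearson's r = 0.888 (exact permutation p = 0.00179, adjusted p = 0.0371) and Spearman's rho = 0.952 (exact permutation p = 0.00114, adjusted p = 0.0411). The relation held at r = 0.864 without the 2 libraries farthest from the Cldn1 median, aged replicates 1 and 3, and at 0.947 without adult replicates 3 and 4. Cldn4 and Ocln had r = 0.883 (exact permutation p = 0.00206, adjusted p = 0.0371) and rho = 0.810 (exact permutation p = 0.0218, adjusted p = 0.196). That relation was weaker without adult replicates 3 and 4, at r = 0.577. Cgn with Cldn4 (r = 0.859, exact permutation p = 0.00466, adjusted p = 0.056, rho = 0.810) missed the threshold, and r was 0.483 without the same 2 libraries. As deviations from the group means over all 8 libraries, r was 0.859 for Cldn1 with Ocln and 0.834 for Cldn4 with Ocln. The deviation r furthest from 0 among the 36 pairs was negative, -0.961 for Cldn8 with Cgn. For levels that pair had r = -0.558 (exact permutation, adjusted p = 0.374), and r was above 0 in 19 of the 36 pairs. The deviations were not tested. The permutations treat the 8 libraries as exchangeable, although they fall into age groups and may be paired by number. The libraries share depth and cell mixture across genes, and no cause of these relations was tested.

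**Figure D4:**
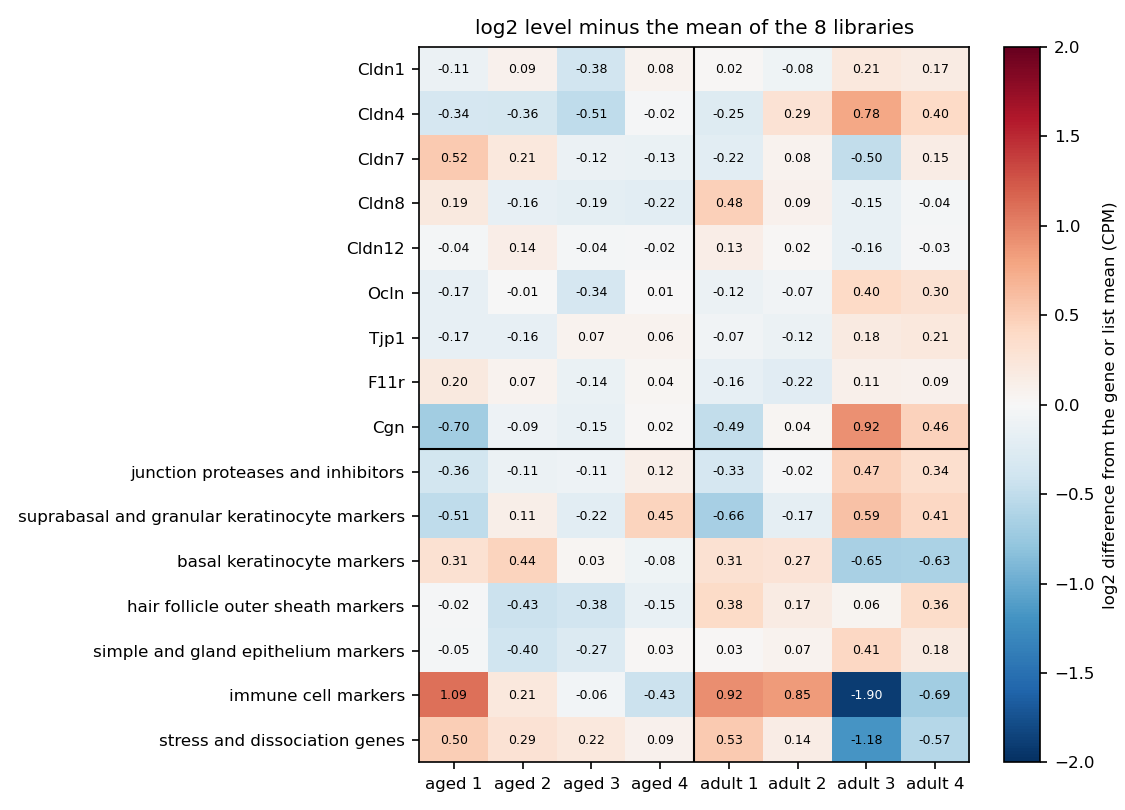
Heat map of log2 level in each library minus the mean of the 8 libraries, for the 9 tight junction genes (top) and the summed CPM of marker lists (bottom), with aged libraries left and adult libraries right. Cgn reaches 0.92 and Cldn4 0.78 in adult replicate 3, where suprabasal markers are at 0.59, basal markers at -0.65 and immune markers at -1.90.

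The libraries with high Cldn4, Cgn and Ocln also differed in their markers. Adult replicate 3 had the highest level of all 3 genes and the highest suprabasal sum, and aged replicate 4, with the highest suprabasal sum of its group, had the highest aged level of the same 3 genes. The order did not hold between groups, since aged replicate 4 (14901 CPM) had a higher suprabasal sum than adult replicate 4 (14555 CPM) with lower levels of all 3 genes, and aged replicate 2 (11813 CPM) a higher sum than adult replicate 2 (9695 CPM) with lower Cldn4. By gene, 11 of the 12 suprabasal and granular markers had estimates below 0, with a median log2 fold change of -0.38. All 10 basal markers had estimates above 0, and no gene of either list was called in edgeR. DESeq2 with the replicate-pair term called basal Krt14 (0.43, adjusted p = 0.0019), Krt5 (0.41, 0.011), Itgb1 (0.55, 0.041) and Itga6 (0.52, 0.072). It also called suprabasal Ivl (-0.68, 0.086) and Flg (-1.15, 0.081), beside 4.8% of all genes. In edgeR without adult replicates 3 and 4, 7 of the 12 suprabasal (median -0.051) and 8 of the 10 basal estimates were below 0. The 7 proteases and inhibitors summed to 389, 461, 464 and 544 CPM in aged replicates 1 to 4 and to 397, 492, 692 and 632 CPM in adult replicates 1 to 4. Stress and dissociation genes summed to 8396, 7244, 6907 and 6305 CPM in aged replicates 1 to 4 and to 8552, 6565, 2618 and 3993 CPM in adult replicates 1 to 4, and immune markers to 127 to 365 CPM in aged and 45.7 to 325 CPM in adult libraries, lowest in adult replicates 3 and 4. The 10 markers of the hair follicle outer sheath summed to 1006 to 1336 CPM in aged and 1412 to 1765 CPM in adult libraries, and 10 markers of simple and gland epithelia to 85.1 to 114.6 CPM in aged and 114.6 to 149 CPM in adult libraries, without overlap for either list, although the gland sums of the groups met at 114.6 CPM. In edgeR, none of the 10 outer sheath markers was called. Lower in aged cells at an unadjusted p under 0.05 were 6, beside 5.99% of all genes in either direction. The groups were apart for 4, beside 3.54% of all genes. Without adult replicates 3 and 4, all 10 estimates were below 0. In that fit 7 had an unadjusted p under 0.05, beside 3.21% of all genes. The lowest adjusted p of the list in DESeq2 without a further term was 1.5e-06, for Fgf18. Of the gland list, Epcam gave most of the sum, Foxi1 had 4 counts in all and Krt18 at most 0.347 CPM. The part of any of these lists in the values of the 9 genes was not tested.

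For each of the 9 genes the 2 most alike of 10349 genes with a mean of at least 5 CPM were found by Pearson's r of log2 CPM over the 8 libraries, which is a description of these libraries. Cldn4 was closest to Slc46a2 (r = 0.993) and to Prss8 (0.981), which is also in the protease list. Cgn was closest to Tm7sf2 (0.994) and Fndc9 (0.992), Ocln to Spg20 (0.986) and Slc36a4 (0.985), and Tjp1 to Kif1b (0.989) and Cpeb4 (0.988). Cldn8 was closest to Lrig1 (0.982), a receptor inhibitor known as a marker of stem cells above the hair follicle bulge, and to Chat (0.977), and Cldn1 to Dolk (0.963) and Tmem41b (0.959). The closest genes were Fbl (0.965) and Ddx21 (0.946) for Cldn7, Scml2 (0.953) and Pkia (0.920) for Cldn12 and Ist1 (0.940) and Tti2 (0.917) for F11r. The libraries share depth and cell mixture, and among so many genes searched a high r is found for any pattern of 8 values.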

How the data were processed

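Transcripts were measured by total RNA sequencing of epidermal cells (paired-end reads of 50 bases, ribosomal RNA removed), although the labels name the molecule polyA RNA. The deposited values are raw counts per gene, made by the authors with STAR 2.5.2b on mm10 and featureCounts with its inbuilt annotation, without multi-mapping reads. The labels also list mm9. Strand setting and the study's batch are not given in the sources used here. None of the 9 genes overlaps another gene of the table. Of 27179 identifiers, 25275 were named from RefSeq GRCm38.p6 and 18 from GENCODE M21, and 1886 stayed unnamed. Exon lengths came from GENCODE M21.

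Counts were tested with edgeR 4.0.16 (quasi-likelihood, TMM scaling, filterByExpr, common biological coefficient of variation 0.258) in R 4.3.3, after a test on simulated data, with Benjamini-Hochberg adjustment over 17702 genes. CPM used TMM-scaled totals. The SE is the absolute log2 fold change over the square root of F. At 75027694 counts or more per library, counting error is small except for Cldn7. Replicates of a group differed beyond counting error (chi-square per degree of freedom 70.7 to 397), so none was a repeat deposit. Replicate numbers came from the titles. Deviations from group means correlated between libraries of the same number at 0.339, 0.478, 0.254 and 0.341, all over 0.1. The labels do not pair the samples, and these values do not settle whether the numbers do. The main fit has no block, and the block is given as an alternative. The pairing is uncertain, since libraries of different number also passed 0.1. Aged 4 with adult 3 gave 0.435, aged 1 with adult 2 gave 0.185 and aged 3 with adult 4 gave 0.179. Alternatives were other scalings and filters, DESeq2 1.42.0, limma-voom 3.58.1, the replicate number as a block, a 2-level replicate-pair term, each library left out, and adult replicates 3 and 4 left out. The 9 genes, the gene lists and the alternatives were chosen with earlier results of these data known. Named beside the 9 genes were the 4 most abundant genes per kb of each list, every called gene and every gene with an unadjusted p under 0.05, and the 2 most alike genes. Genes given with marker sums, Cldn5, Nectin1 and Grhl2 were named outside that rule.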

Additional observations from a re-analysis of the deposited data

Results flagged for a closer look

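In each group of 4 libraries of the 9 genes, 18 groups in all, the highest and lowest library were compared with their nearest neighbor by Dixon's test, which flags about 1 group in 20 by chance. The level of Cldn8 in aged replicate 1, 15.6 CPM, lay apart from the next aged library at 12.2 CPM, with a gap of 0.878 of the group's range. The level of Cldn12 in aged replicate 2, 29.3 CPM, lay apart from the next at 26.2 CPM, with a gap of 0.895 of the range. Neither gene was called with or without these libraries.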

How the results depend on the processing

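Over 19 alternatives per gene (18 for Cldn7, which a filter of 1 CPM in 4 libraries removed), 165 of 170 estimates of the 9 genes kept their direction and their side of the threshold. None of the 9 genes was called except in DESeq2 with the replicate-pair term, which called 1 (Cldn4, -0.62) and 3 other tight junction genes. Estimates of Cldn4 ranged from -0.80 to -0.34, of Ocln from -0.35 to -0.03 and of Cgn from -0.72 to -0.01, each nearest to 0 without adult replicates 3 and 4. Those were the highest adult libraries for each of these genes, so leaving them out moved the estimates toward 0 by construction. Cldn12 ranged from -0.043 (without aged replicate 2) to 0.060 (without adult replicate 1) with 1 library left out, was -0.035 without adult replicate 3, and turned to -0.069 without adult replicates 3 and 4, where Tjp1 turned to 0.053. The cause was not tested.

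The count over all genes, 20, was 13 with library size alone, 190 with DESeq2, 3 with the replicate block, 57 with the replicate-pair term in edgeR, 751 with that term in DESeq2, 10 without adult replicates 3 and 4, and 6 to 15 with 1 library left out. The replicate block called 0 of the 9 genes (Cldn4 at -0.61, Cgn at -0.46) and changed no other call of the lists. Among the 9 genes, depth limits Cldn7, at 15 to 36 counts per library.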
